A study of Homo sapiens with 30 samples.

Results

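The 10 genes described here are the feedback regulators of the RAS-ERK pathway DUSP4, DUSP5, DUSP6, SPRY1, SPRY2, SPRY4, SPRED1, SPRED2, ETV4 and ETV5. They were chosen by name, and each was matched by its Ensembl gene ID in all 3 deposited tables, which hold 62710 genes for IMR32 and 57905 genes each for NGP and SK-N-BE(2)c. Bulk RNA sequencing was done on these 3 established neuroblastoma cell lines, which grow from childhood tumours of the sympathetic nervous lineage. Cells of every group were transfected by lipofection with 100 nM of an antisense oligonucleotide (ASO), a short synthetic strand that pairs with a chosen RNA. ASO1, ASO2 and ASO10 targeted NESPR, a long non-coding RNA, and NCA was the negative control ASO. The 9 groups were ASO1, ASO2 and NCA in IMR32 with 4 libraries each, and ASO2, ASO10 and NCA with 3 libraries each in both SK-N-BE(2)c and NGP. All groups, the controls included, thus had an ASO and the lipid carrier, and no group of untreated cells was analysed here. The knockdown of NESPR itself is not reported here.

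ERK is the last kinase of a cascade that runs from receptor tyrosine kinases through RAS, RAF and MEK. Active ERK switches on genes whose products act back on the cascade. The DUSP proteins are phosphatases that remove phosphate from ERK and related kinases, the Sprouty and SPRED proteins act on the cascade near RAS and RAF, and ETV4 and ETV5 are ETS-family transcription factors of the PEA3 group. The repressor CIC, which ERK signalling inactivates, is known to hold ETV4, ETV5, DUSP6 and SPRY4 down. Transcript levels of such genes are often read as a record of ERK output, and in neuroblastoma the cascade is known for activation through ALK and RAS.

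Promoter sequence from RefSeq (GRCh38.p14) was held for 6 of the 10 members, in 10 windows of 300 bases around annotated starts. No window was held for DUSP4, DUSP5, ETV4 or ETV5, so these 4 were not searched. The windows were searched on both strands for the CIC-bound octamers TGAATGAA, TGAATGGA, TCAATGAA and TCAATGGA. Of the member windows, 1 held a match, that of DUSP6, against 3.77% of all 35116 windows. It held TCAATGGA in 2 places on the strand opposite the gene, where the gene's own strand reads TCCATTGA. The first base of these matches lay 24 bases before the annotated start and at base 2 after it. TCAATGGA occurred in 0.51% of all windows, and 0.328% held any of the 4 octamers at least 2 times. The 3 stretches printed here run from 90 bases before the start to 30 bases after it on the strand of the gene and are shown because DUSP6 and SPRY4 are members that were higher with ASO2 in all 3 lines, while SPRED1 was lower with ASO2 in 2 of them. Capitals mark the matches to a CIC octamer.
DUSP6, chr12:89352472-89352591, minus strand: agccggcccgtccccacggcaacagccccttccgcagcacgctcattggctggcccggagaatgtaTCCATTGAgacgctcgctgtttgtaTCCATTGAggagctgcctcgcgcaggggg
SPRY4, chr5:142324218-142324337, minus strand: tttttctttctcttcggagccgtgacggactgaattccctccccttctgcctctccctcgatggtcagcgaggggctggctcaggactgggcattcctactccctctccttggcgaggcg
SPRED1, chr15:38252746-38252865, plus strand: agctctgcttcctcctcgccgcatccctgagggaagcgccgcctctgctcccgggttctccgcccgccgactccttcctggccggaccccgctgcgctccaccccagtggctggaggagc
Among the other motifs searched, the ETS octamer CCGGAAGT (4.14% of all windows) and the CRE octamer TGACGTCA (1.85%) were in no member window. The AP-1 heptamer TGACTCA (4.95%) was in 1 window of SPRED2, and the EGR motif GCGGGGGCG (5.07%) in 1 window each of SPRY1 and SPRY2. A match is a description of these letters, and binding was not measured.

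The deposited values are normalized counts, that is, gene read counts divided by a size factor for each library. Whole reads were recovered from them, 9393587 to 15060356 per library. No label states which library was made with the total RNA kit and which with the mRNA kit that the protocols name, so no value within batches could be computed. The labels do not say whether replicates were separate cultures, so the p-values measure the spread between these libraries, which may be technical. All 8 adrenergic neuroblastoma markers listed were present in every line. Their summed normalized count was lower with each NESPR-directed ASO than with NCA, for example 40053 to 41079 with ASO2, 39250 to 40886 with ASO10 and 45324 to 47228 with NCA in NGP. By gene, with ASO2 in SK-N-BE(2)c 3 were called higher and 4 lower, against 33.6% and 33.4% of all genes tested. ASO10 had 0 higher and 6 lower there (27.8% and 31.1%). NGP had 1 higher and 5 lower with ASO2 (30.6% and 28.1%) and 1 and 6 with ASO10 (26.8% and 27.6%). IMR32 had 0 higher and 4 lower with ASO1 (13.6% and 14.4%) and with ASO2 (17.6% and 14.8%). Of the 8 fibroblast markers TWIST2 was at 0 in all libraries, and the summed count was 676 to 730 with ASO2, 415 to 515 with ASO10 and 446 to 475 with NCA in NGP. The same sum in SK-N-BE(2)c was 1232 to 1304, 895 to 1084 and 1122 to 1179, and in IMR32 it was 922 to 1056 with ASO1, 1198 to 1310 with ASO2 and 1024 to 1118 with NCA. Of the 6 immune cell markers CD3E was at 0 in all libraries, and the summed count was 114 to 152 with ASO10 against 26.7 to 45.2 with NCA in NGP. The same immune sum was 45.3 to 63.5 with ASO2 and 53.0 to 57.3 with ASO10 against 28.3 to 31.3 in SK-N-BE(2)c, and 16.7 to 18.8 with ASO2 and 6.39 to 21.8 with ASO1 against 7.69 to 9.44 in IMR32. It was 39.5 to 48.9 with ASO2 in NGP, which overlapped with NCA. The part of these shifts in the results was not tested, and in bulk RNA fewer cells of a type cannot be told apart from less RNA per cell.

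In control cells the order of the 10 genes differed by line when levels were expressed as normalized count per kilobase of exon (GENCODE 29). In NGP, DUSP4 was highest at 524 ± 15.2 per kilobase (SD, n = 3), followed by SPRY2 at 284 ± 20.9. ETV4, SPRED2 and SPRY4 came next at 246 ± 12.1, 232 ± 11.8 and 231 ± 10.7, and the libraries of each overlapped with those of the next gene. DUSP6 and ETV5 also overlapped, at 51.6 ± 4.28 and 47.9 ± 0.393, as did SPRED1 and DUSP5 at 42.3 ± 5.27 and 31.6 ± 5.3, and SPRY1 was last at 19.3 ± 4.19. In SK-N-BE(2)c, DUSP4 at 384 ± 15.5 per kilobase overlapped with SPRY4 at 366, and below them every gene was clear of the next: ETV4 at 292, SPRY2 at 192, SPRED2 at 135, ETV5 at 123, SPRED1 at 51.8, DUSP5 at 37.0, DUSP6 at 12.2 and SPRY1 at 0.088. IMR32 was scaled on its own, so its levels were not set against the other lines. There SPRED2 led at 145 ± 19.1 (SD, n = 4), then ETV5 at 86.7 ± 18.7, SPRED1 at 59.4 ± 0.958 and DUSP4 at 39.8 ± 1.14, each clear of the next. The remaining members lay between 13.6 and 18.4 per kilobase, and each of them overlapped with its neighbours.

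The tables of SK-N-BE(2)c and NGP carry 1 joint scaling, which allowed their control cells to be compared directly. Of the 10 members, 9 differed by limma's test at a Benjamini-Hochberg adjusted p under 0.05, against 77% of 14537 genes tested. Levels of DUSP6 were lower in SK-N-BE(2)c, with libraries at 49.2, 53.4 and 67.5 against 241, 218 and 257 (log2 difference -2.07, standard error 0.15, limma adjusted p 6.81e-12). ETV5 differed in the other direction, at 724, 718 and 707 against 280.4, 278 and 276 (log2 difference 1.36). SPRY1 was nearly unread in SK-N-BE(2)c, with 0 to 2 reads in each of the 9 libraries. In the controls it had 1 read there and 246 reads in NGP, a ratio of 229 (exact 95% interval for counting error only 40.8 to 9095), and it was not tested within SK-N-BE(2)c. SPRED1, slightly higher in SK-N-BE(2)c (log2 difference 0.29, limma adjusted p 0.0119), no longer passed without NGP NCA replicate 2 (0.20, adjusted p 0.0998) or SK-N-BE(2)c NCA replicate 1 (0.21, adjusted p 0.0953). A replicate block, a term in the fit for the replicate number within a line, gave 0.27 (limma adjusted p 0.0831). In the joint fit that term set the level of each line at 1 reference replicate. The value is therefore no check of this call between lines. DUSP5 was the member that did not pass (log2 difference 0.24, 95% interval -0.09 to 0.56, limma adjusted p 0.179).

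Against NCA, the members were mostly higher with ASO2. With ASO2 in IMR32, 5 members were higher and 0 lower, against 17.6% and 14.8% of 17309 genes tested. With ASO2 in NGP, 8 were higher and 2 lower, against 30.6% and 28.1% of 14440 genes. With ASO2 in SK-N-BE(2)c, 6 of the 9 tested were higher and 2 lower, against 33.6% and 33.4% of 13556 genes. The median log2 fold change of the members was 0.48, 0.66 and 0.71 in that order of lines, and that of all genes was -0.001, 0.01 and -0.02. Fewer members passed with the other ASOs. In IMR32, ASO1 raised 1 member and lowered 0, against 13.6% and 14.4% of genes, with a median of 0.18 beside -0.003 for all genes. ASO10 raised 4 and lowered 1 in NGP, against 26.8% and 27.6%, and raised 3 and lowered 0 in SK-N-BE(2)c, against 27.8% and 31.1%. The members' medians with ASO10 were 0.01 and 0.12, and those of all genes were -0.03 in both lines. Within a line both ASOs were set against the same NCA libraries, so these comparisons are not independent of each other.

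**Figure D1:**
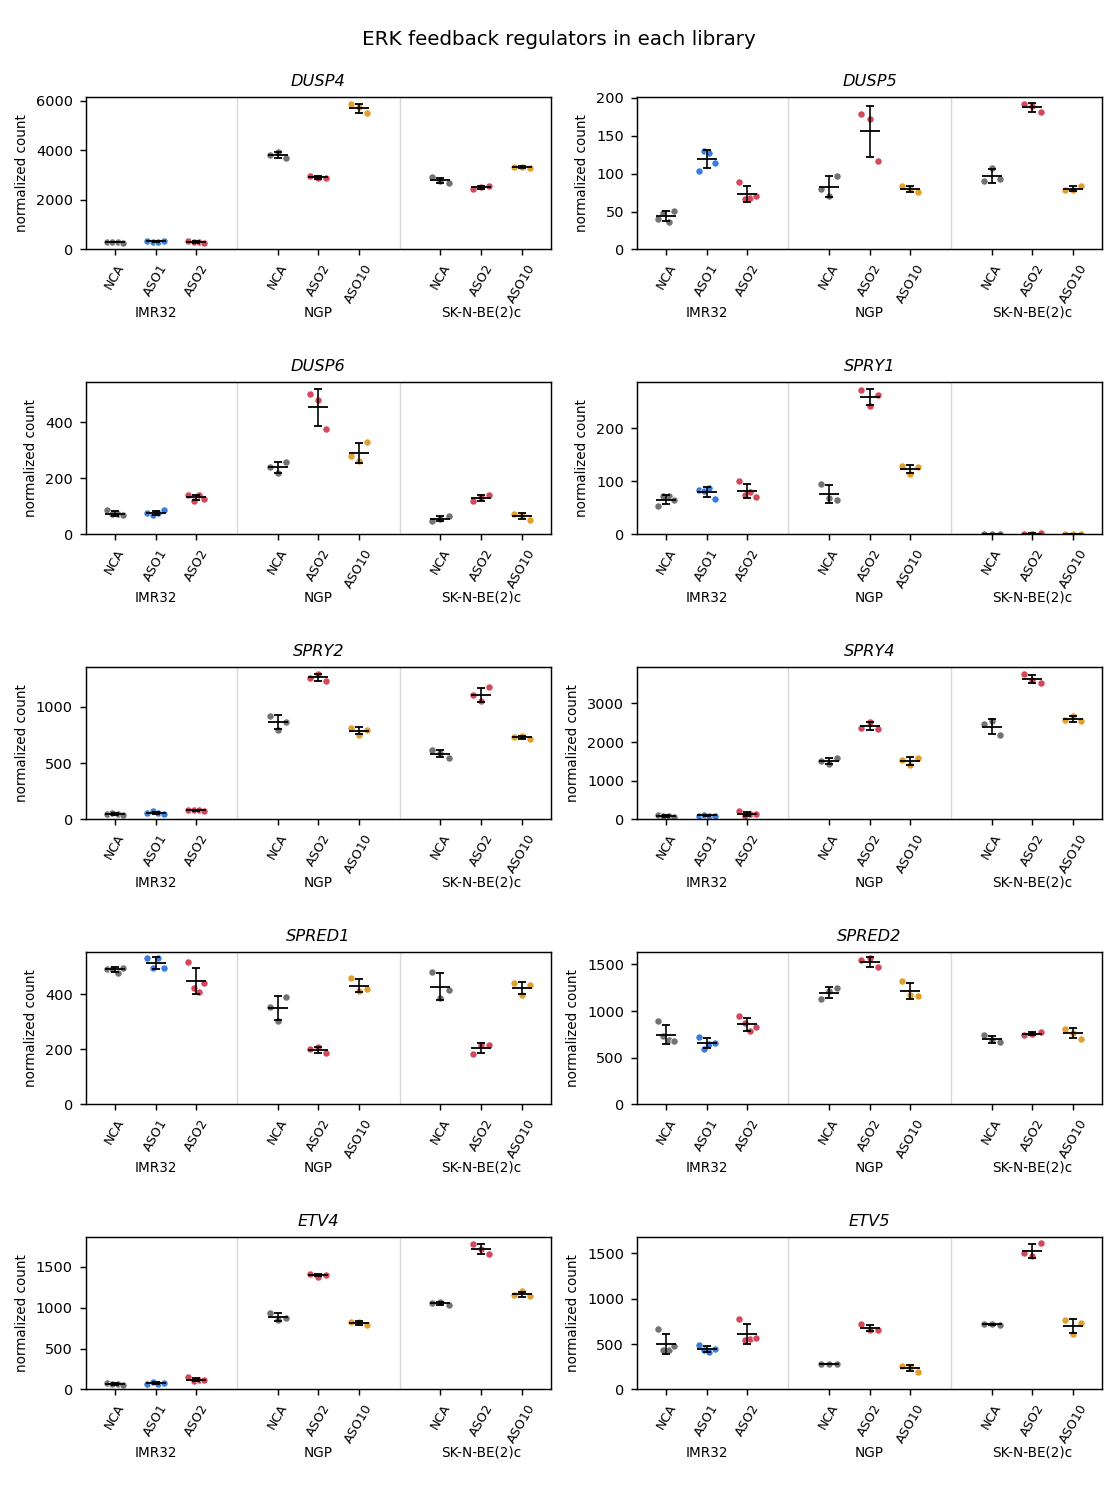
Normalized count of each gene (vertical axis, linear from 0, a separate scale per gene) in every library, by ASO and cell line. Points are libraries, and black marks are the mean with its SD (n = 4 in IMR32, n = 3 in the other lines). IMR32 was scaled apart from the other lines. DUSP6, SPRY2, ETV4 and ETV5 with ASO2 lie above NCA in NGP and SK-N-BE(2)c, and SPRED1 with ASO2 lies below.

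Among the phosphatases, DUSP6 (ENSG00000139318), the cytoplasmic phosphatase with a preference for ERK, was higher with ASO2 in all 3 lines. In IMR32 its normalized counts were 141, 121, 140.1 and 127 with ASO2, against 86.1, 72.8, 71.4 and 68.0 with NCA. In NGP they were 501, 481 and 376 against 241, 218 and 257, and in SK-N-BE(2)c 119, 134 and 139 against 49.2, 53.4 and 67.5. All ASO2 libraries lay above all NCA libraries in each line. The log2 fold changes were 0.82 ± 0.11 (standard error), 0.91 ± 0.11 and 1.20 ± 0.18, with limma adjusted p 1.37e-05, 1.66e-07 and 8.56e-07. With ASO1 in IMR32 the counts were 74.8, 68.5, 77.7 and 86.1, spread over the same range as NCA (log2 fold change 0.04, 95% interval -0.19 to 0.27, limma adjusted p 0.811). ASO10 gave 280.2, 261 and 328 in NGP (log2 fold change 0.27, limma adjusted p 0.042) and 72.5, 70.6 and 51.6 in SK-N-BE(2)c (0.19, 95% interval -0.17 to 0.55, limma adjusted p 0.369). The NGP call was lost without NCA replicate 1 or 2, ASO10 replicate 1 or 3, or ASO2 replicate 2 (0.18 to 0.29), and was weakest without ASO10 replicate 3 (0.18, limma adjusted p 0.221). It was lost too with the same total per library (0.26, limma adjusted p 0.0523).

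DUSP5 (ENSG00000138166), a nuclear phosphatase for ERK, was the only member that passed with ASO1. In IMR32 its counts were 104, 129.8, 127 and 114.5 with ASO1, 88.6, 65.9, 67.4 and 70.8 with ASO2 and 40.1, 48.1, 36.2 and 50.5 with NCA. The 3 groups did not overlap, ASO1 being highest and NCA lowest. The log2 fold changes against NCA were 1.43 ± 0.13 for ASO1 and 0.73 ± 0.13 for ASO2 (standard error, limma adjusted p 1.27e-07 and 0.00034), and ASO1 exceeded ASO2 by 0.70 (limma adjusted p 0.000739). In NGP the counts were 178, 173 and 117 with ASO2, 83.6, 79.9 and 75.9 with ASO10 and 80.1, 70.0 and 97.4 with NCA. The SK-N-BE(2)c counts were 192, 189.5 and 181 with ASO2, 78.1, 78.8 and 84.3 with ASO10 and 89.99, 107.9 and 92.5 with NCA. ASO2 was above both other groups in each of these lines, with log2 fold changes against NCA of 0.90 ± 0.17 and 0.95 ± 0.14 (limma adjusted p 5.88e-05 and 6.31e-07). The ASO10 libraries overlapped with NCA in NGP (log2 fold change -0.04, 95% interval -0.38 to 0.31) and lay below NCA without passing the test in SK-N-BE(2)c (-0.26, 95% interval -0.54 to 0.02, limma adjusted p 0.104).

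DUSP4 (ENSG00000120875), a nuclear phosphatase for ERK and other MAP kinases, went the other way with ASO2. In NGP its counts were 2973, 2892 and 2868 with ASO2, 5853, 5739 and 5507 with ASO10 and 3795, 3919 and 3699 with NCA. For SK-N-BE(2)c they were 2455, 2519 and 2571 with ASO2, 3340, 3342 and 3292 with ASO10 and 2916, 2752 and 2701 with NCA. In both lines the 3 groups were separate, with ASO2 lowest and ASO10 highest. ASO2 lowered DUSP4 in NGP (log2 fold change -0.39 ± 0.05), and less in SK-N-BE(2)c (-0.15 ± 0.05; standard errors, limma adjusted p 2e-07 and 0.013), while ASO10 raised DUSP4 by 0.58 ± 0.05 and 0.25 ± 0.05 (limma adjusted p 2e-10 and 0.000134). The ASO2 call in SK-N-BE(2)c was lost without NCA replicate 1 (-0.12, limma adjusted p 0.0681) or without ASO2 replicate 1 (-0.13, limma adjusted p 0.0504), and with libraries scaled to the same total it was -0.29 (limma adjusted p 1.99e-05). In IMR32 the means were 324 ± 9.36 with ASO1, 291 ± 30.9 with ASO2 and 289 ± 8.29 with NCA (SD, n = 4). Neither ASO passed there, with 95% intervals of 0.01 to 0.31 for ASO1 and -0.14 to 0.16 for ASO2, although with the same total per library the ASO1 value was 0.19 and passed (limma adjusted p 0.0478). With a replicate block the ASO1 value was 0.16 and passed too (limma adjusted p 0.044).

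Of the Sprouty genes, SPRY2 (ENSG00000136158), a membrane-associated inhibitor of receptor tyrosine kinase signalling, was higher with ASO2 in all 3 lines. Its counts in SK-N-BE(2)c were 1103, 1048 and 1173 with ASO2, 728, 744 and 711 with ASO10 and 613, 589 and 547 with NCA, 3 groups with no overlap. The log2 fold changes there were 0.92 ± 0.07 with ASO2 and 0.32 ± 0.07 with ASO10 (standard error, limma adjusted p 3.78e-12 and 0.000294). In NGP the counts were 1259, 1290 and 1233 with ASO2, 815, 752 and 796 with ASO10 and 922, 796 and 868 with NCA. ASO2 stood above both other groups (0.55 ± 0.07 against NCA, limma adjusted p 1.74e-07), while ASO10 overlapped with NCA (-0.13, 95% interval -0.27 to 0.01, limma adjusted p 0.115). That value was -0.18 and passed without NCA replicate 2 (limma adjusted p 0.0326), and was -0.08 without NCA replicate 1. In IMR32 its normalized counts were 79.8, 85.7, 85.3 and 73.1 with ASO2 and 50.7, 60.4, 52.7 and 40.4 with NCA (log2 fold change 0.67 ± 0.14, limma adjusted p 0.00153). With ASO1 it was 59.1 ± 11 (SD, n = 4), which did not pass (0.20, 95% interval -0.10 to 0.51).

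SPRY4 (ENSG00000187678), an inhibitor of the same family, was likewise higher with ASO2. The counts were 2376, 2523 and 2339 with ASO2 against 1521, 1441 and 1580 with NCA in NGP, and 3760, 3599.6 and 3539 against 2482, 2535 and 2182 in SK-N-BE(2)c. Neither pair of groups overlapped, and the log2 fold changes were 0.67 ± 0.06 and 0.60 ± 0.06 (standard error, limma adjusted p 8.7e-10 and 3.84e-10). In IMR32 the ASO2 libraries varied from 94.2 to 209 and overlapped with NCA at 74.4 to 107, although limma called the difference (0.66 ± 0.17, adjusted p 0.00541). ASO10 did not pass in either line, NGP having a log2 fold change of -0.004 (95% interval -0.13 to 0.12) and SK-N-BE(2)c one of 0.12 (0.001 to 0.24). On recovered reads the value in SK-N-BE(2)c did pass, at 0.14 by edgeR (adjusted p 0.0326) and 0.16 by DESeq2 (adjusted p 0.0202), and so it did by limma without NCA replicate 2 (0.16, adjusted p 0.039), while without NCA replicate 3 it was 0.05. With a replicate block that value was 0.12 and passed (limma adjusted p 0.0486).

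SPRY1 (ENSG00000164056) showed the greatest log2 fold change of any member, in NGP. There its counts were 271, 242 and 261 with ASO2, 129.4, 114.1 and 126 with ASO10 and 95.6, 68.2 and 65.6 with NCA. The groups were separate, and both ASOs raised it. The log2 fold change was 1.76 ± 0.14 with ASO2 (standard error, limma adjusted p 1.25e-10) and 0.70 ± 0.14 with ASO10 (limma adjusted p 0.000184). IMR32 cells had 79.7 ± 8.89 with ASO1, 81.3 ± 13.0 with ASO2 and 65.7 ± 8.42 with NCA (SD, n = 4). These groups overlapped, and neither ASO passed (0.28 and 0.30, limma adjusted p 0.131 and 0.0909).

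The SPRED genes, whose products hold back RAS together with neurofibromin, parted from each other. SPRED1 (ENSG00000166068) was lower with ASO2 in NGP, at 202, 208 and 187 against 354, 303 and 389.7 with NCA. The same held in SK-N-BE(2)c, with 183, 217 and 216 against 482, 386 and 415. The log2 fold changes were -0.80 ± 0.10 and -1.05 ± 0.10 (standard error, limma adjusted p 2.29e-07 and 2.73e-10). With ASO10 it was higher in NGP at 459, 414 and 421 (0.31 ± 0.10, limma adjusted p 0.0114). Without ASO10 replicate 1 or without NCA replicate 2 that value was 0.27 or 0.21 and no longer passed (limma adjusted p 0.0652 and 0.0916). In SK-N-BE(2)c the ASO10 libraries, at 439.9, 399 and 433, lay within the control range (-0.01, 95% interval -0.21 to 0.19). In IMR32 neither ASO passed, with means of 515 ± 21.7 for ASO1, 447 ± 47.4 for ASO2 and 490.3 ± 7.92 for NCA (SD, n = 4). The ASO2 value of -0.14 there was -0.21 and passed without ASO2 replicate 1 (limma adjusted p 0.0103), was -0.10 without ASO2 replicate 3, and was -0.17 and passed with the same total per library (limma adjusted p 0.0345). With a replicate block it was -0.14 and passed (limma adjusted p 0.04).

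SPRED2 (ENSG00000198369) was called against NCA in 1 comparison. With ASO2 in NGP its counts were 1548, 1571 and 1468 against 1128, 1215 and 1245, with no overlap (0.35 ± 0.06, standard error, limma adjusted p 4.4e-05). In SK-N-BE(2)c the values were 740.3, 755 and 775 with ASO2 and 739.8, 686 and 669 with NCA. That difference of 0.12 did not pass (95% interval -0.03 to 0.27, limma adjusted p 0.152) and its sign turned, to -0.02, with libraries scaled to the same total. ASO10 gave 0.03 in NGP (95% interval -0.11 to 0.16) and, for SK-N-BE(2)c, 0.12 (-0.02 to 0.27). In IMR32, where the first NCA library stood at 893 and the others at 684 to 730.3, the values were -0.19 with ASO1 and 0.21 with ASO2 (limma adjusted p 0.0894 and 0.0541). Without that library the ASO2 value was 0.29 and passed (limma adjusted p 0.00302), as it did without ASO2 replicate 3 (0.24) or ASO1 replicate 1 (0.21). The ASO1 value passed without ASO1 replicate 1 (-0.24, limma adjusted p 0.0285) and was -0.10 without NCA replicate 1. With a replicate block both values, -0.19 for ASO1 and 0.21 for ASO2, passed (limma adjusted p 0.00184 and 0.00055).

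Both ETS factors were higher with ASO2 in SK-N-BE(2)c and NGP. ETV5 (ENSG00000244405) stood at 718, 659 and 655 with ASO2 against 280.4, 278 and 276 with NCA in NGP. The corresponding SK-N-BE(2)c values were 1505, 1466 and 1609 against 724, 718 and 707. Every ASO2 library lay above every control library, and the fold changes were 2.43 and 2.13 (log2 fold change 1.28 ± 0.10 and 1.09 ± 0.07, standard error, limma adjusted p 7.42e-11 and 3.77e-13). ASO10 gave 262, 251 and 195 in NGP, slightly lower than NCA (-0.25 ± 0.10, limma adjusted p 0.0397), and 759.8, 612 and 732 in SK-N-BE(2)c, which overlapped with NCA (-0.04, 95% interval -0.19 to 0.11). The decrease in NGP did not pass by edgeR (-0.22, adjusted p 0.0726) or DESeq2 (-0.22, adjusted p 0.0964) and was -0.12 without ASO10 replicate 3 (limma adjusted p 0.317). It also did not pass without NCA replicate 1 or 2 or any 1 of the ASO2 libraries (-0.24 to -0.25). In IMR32 the counts were 776, 539.5, 559.6 and 569 with ASO2, 490.1, 436, 414 and 445 with ASO1 and 662, 437, 430.5 and 482 with NCA. Replicate 1 was the highest library of each IMR32 group, the groups overlapped, and neither ASO passed (0.29 and -0.15, limma adjusted p 0.0647 and 0.364). Leaving out NCA replicate 1 moved the ASO2 value to 0.43 (limma adjusted p 0.00195), and without ASO1 replicate 1 it was 0.29 and passed (limma adjusted p 0.0468). Without ASO2 replicate 1 it fell to 0.17 and did not pass. With a replicate block both values, 0.29 for ASO2 and -0.15 for ASO1, passed (limma adjusted p 6.58e-05 and 0.0311).

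ETV4 (ENSG00000175832) was higher with ASO2 in all 3 lines. The counts were 147, 106, 112 and 117 against 80.2, 64.1, 62.6 and 57.9 with NCA in IMR32. In NGP they were 1407, 1381 and 1399 against 935, 851 and 873, and in SK-N-BE(2)c 1779, 1721 and 1663 against 1058, 1074 and 1030.3. The groups did not overlap in any line, and the log2 fold changes were 0.86 ± 0.13, 0.66 ± 0.06 and 0.71 ± 0.06 (standard error, limma adjusted p 7.25e-05, 2.91e-09 and 2.89e-11). With ASO1 in IMR32 it was 77.4 ± 11.4 (SD, n = 4), which did not pass (0.22, 95% interval -0.05 to 0.50). ASO10 libraries lay just below NCA in NGP at 824, 823 and 789 (-0.13, limma adjusted p 0.0973) and just above it in SK-N-BE(2)c at 1152, 1199 and 1139.9 (0.14, limma adjusted p 0.0408). The latter call was lost in 7 of the 9 fits that left out 1 library (0.12 to 0.16), all but those without ASO2 replicate 1 or 3, and with libraries scaled to the same total (0.12, limma adjusted p 0.0921).

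**Figure D2:**
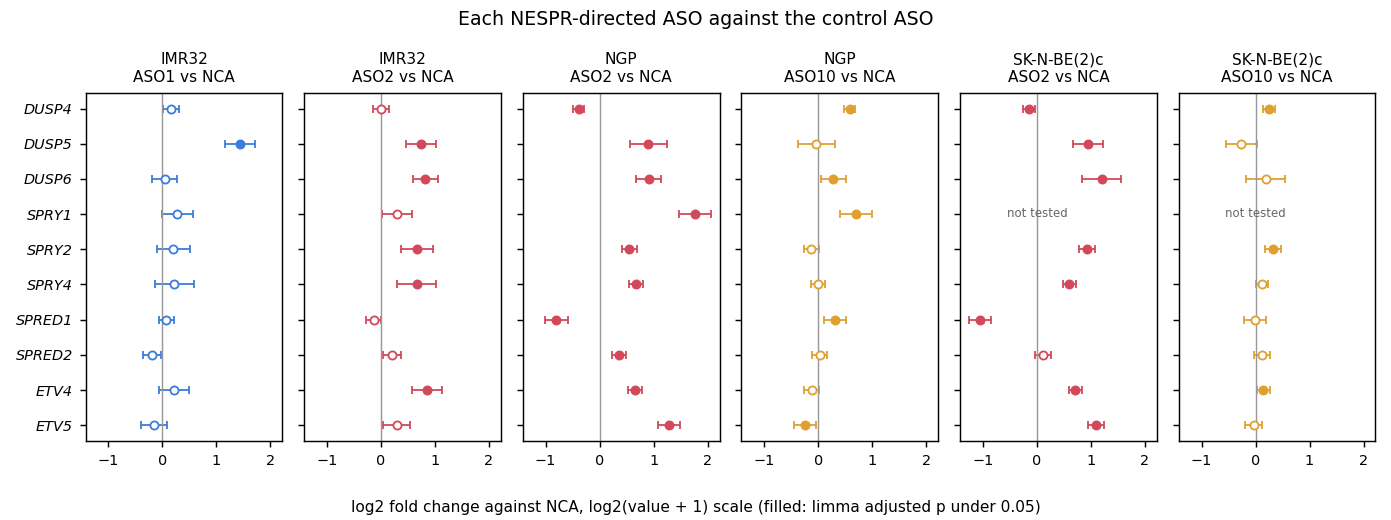
Log2 fold change of each gene against NCA on the log2(value + 1) scale (horizontal axis), 1 panel per ASO and line, with 95% intervals from limma. Filled points have an adjusted p under 0.05. With ASO2 in NGP and SK-N-BE(2)c, SPRED1 and DUSP4 lie left of 0 and the other called members right of it.

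The 2-sided exact permutation tests on single members had little reach. With 4 against 4 libraries they cannot go below 0.0286, the value reached against NCA in IMR32 by DUSP5 with both ASOs, by DUSP4 with ASO1 and by DUSP6, SPRY2 and ETV4 with ASO2. With 3 against 3 libraries, as in NGP and SK-N-BE(2)c, they cannot go below 0.1. Fold changes on the log2(value + 1) scale understate changes of low genes.

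Set against each other, the NESPR-directed ASOs differed at most members. In NGP all 10 members were called between ASO2 and ASO10, 8 higher with ASO2 and 2 lower, against 30.6% and 28% of genes tested. Of 9 tested in SK-N-BE(2)c, 6 were higher and 2 lower, against 34.6% and 30.8%. The members' medians were 0.68 and 0.56, and those of all genes 0.02 and 0.03. The greatest differences in NGP were in ETV5 (log2 fold change of ASO2 against ASO10 1.53, 95% interval 1.32 to 1.73, limma adjusted p 2.16e-12), SPRED1 (-1.11, limma adjusted p 7.82e-10), SPRY1 (1.06, limma adjusted p 5.6e-07) and DUSP4 (-0.97, limma adjusted p 1.28e-14). In SK-N-BE(2)c they were in DUSP5 (1.21, limma adjusted p 9.78e-09), ETV5 (1.13, limma adjusted p 1.84e-13), SPRED1 (-1.04, limma adjusted p 3.43e-10) and DUSP6 (1.01, limma adjusted p 1.23e-05). SPRED2 was the member that did not pass in SK-N-BE(2)c (-0.01, 95% interval -0.15 to 0.14), which leaves room for a difference of about that size in either direction.

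In IMR32, 2 members were higher with ASO1 than with ASO2 and 5 lower, against 9.17% and 12.8% of genes. The higher ones were DUSP5 and SPRED1 (0.70 and 0.21), and the lower ones were DUSP6 (-0.78), ETV4 (-0.63), SPRY2 (-0.46), ETV5 (-0.44) and SPRED2 (-0.39). For DUSP6 every ASO1 library lay below every ASO2 library (limma adjusted p 3.53e-05). The calls of SPRY2 and SPRED1, with limma adjusted p 0.0261 and 0.029, were each lost in 4 of 12 fits that left out 1 library. These were ASO1 replicate 3 and ASO2 replicates 2 and 3 for both, with ASO1 replicate 4 for SPRY2 (-0.38 to -0.44) and ASO2 replicate 4 for SPRED1 (0.17 to 0.20). The SPRY2 call was also lost with the same total per library (-0.41, limma adjusted p 0.0519). SPRY4 (-0.43, limma adjusted p 0.0729) did not pass, but did on recovered reads (edgeR -0.49, adjusted p 0.037, and DESeq2 -0.49, adjusted p 0.0353) and by limma without ASO2 replicate 2 (-0.62, adjusted p 0.00821), while without ASO2 replicate 1 it was -0.24. It passed as well with a replicate block (-0.43, limma adjusted p 0.0079). Intervals for the remaining members were 0.01 to 0.31 for DUSP4, which passed without ASO2 replicate 1 (0.22, limma adjusted p 0.0292), was 0.10 without ASO2 replicate 4 and passed with the same total per library (0.21, limma adjusted p 0.0298), and -0.30 to 0.26 for SPRY1. The members' median was -0.41 and that of all genes -0.001.

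**Figure D3:**
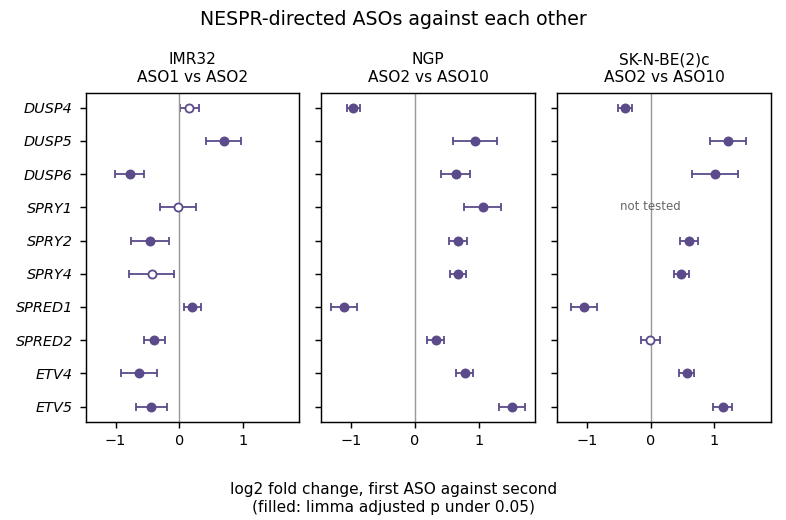
Log2 fold change between NESPR-directed ASOs of 1 line, the first named ASO against the second (horizontal axis), with 95% intervals from limma and filled points for an adjusted p under 0.05. In NGP and SK-N-BE(2)c, DUSP4 and SPRED1 lie left of 0, and in IMR32 DUSP6 lies left of 0 and DUSP5 right of it.

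Whether an ASO acted differently in NGP and SK-N-BE(2)c was tested as a difference of the 2 fold changes in a joint fit. The effect of ASO2 differed at 2 members, against 16.7% of 14537 genes, and that of ASO10 at 3, against 16.9%. For SPRY2 both effects were greater in SK-N-BE(2)c, by 0.37 for ASO2 (limma adjusted p 0.00612) and 0.45 for ASO10 (limma adjusted p 0.00156). For DUSP4 the effects were nearer to 0 in SK-N-BE(2)c, with differences of 0.24 for ASO2 (limma adjusted p 0.00988) and -0.33 for ASO10 (limma adjusted p 0.000767). The DUSP4 difference for ASO2 was 0.17 with libraries scaled to the same total and did not pass (limma adjusted p 0.0566). ETV4 differed for ASO10 (0.27, limma adjusted p 0.0142), and that call was lost without NGP NCA replicate 1 (0.23, limma adjusted p 0.0507). For DUSP6 the ASO2 effects differed by 0.29 with a 95% interval of -0.15 to 0.73, for ETV5 by -0.19 with an interval of -0.45 to 0.08, and for SPRED1 by -0.25 with an interval of -0.55 to 0.05. SPRED2 (-0.24, limma adjusted p 0.0774) passed for ASO2 with the same total per library (-0.30, limma adjusted p 0.0223) and without NGP NCA replicate 3 (-0.27, limma adjusted p 0.0483). SPRY1 is not read here, having next to no reads in SK-N-BE(2)c. Column names spell NCA replicate 1 of these lines unlike replicates 2 and 3, while the titles place all 3 in 1 control group. Without NCA replicate 1, 8 members were higher and 2 lower with ASO2 in NGP, and 3 and 0 with ASO10. In SK-N-BE(2)c 6 were higher and 1 lower with ASO2, and 2 and 0 with ASO10. Over all genes, fits without 1 library called 7623 to 8456 with ASO2 and 6805 to 7796 with ASO10 in NGP, where the main fit tested 14440. For SK-N-BE(2)c these numbers were 8511 to 9114 and 7018 to 8142, where the main fit tested 13556.

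Counts in the lists of other pathway genes are read here against the shares of all genes called in the same comparison. The lists are short, and whether a list's share differed from that of all genes was not tested. In IMR32 13.6% of all genes were higher and 14.4% lower with ASO1, and 17.6% and 14.8% with ASO2. In NGP these shares were 30.6% and 28.1% with ASO2 and 26.8% and 27.6% with ASO10. They were 33.6% and 33.4% with ASO2, and 27.8% and 31.1% with ASO10, in SK-N-BE(2)c.

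Close relatives of the members, 10 genes of the same families, were called in both directions. With ASO2, 4 of 9 tested were higher and 0 lower in IMR32, 5 of 9 higher and 2 lower in NGP, and 2 of 8 higher and 1 lower in SK-N-BE(2)c, with medians of 0.01, 0.20 and 0.01. ASO1 had 2 higher and 0 lower, and ASO10 had 3 higher and 2 lower in NGP and, for SK-N-BE(2)c, 3 higher and 0 lower. The share higher with ASO2 was thus above that of all genes in IMR32 (44.4%) and NGP (55.6%) and below it in SK-N-BE(2)c (25%), where the share lower (12.5%) was also below. DUSP10, a phosphatase for the stress kinases p38 and JNK, passed in 5 of 6 comparisons with NCA, higher each time. Its log2 fold changes with ASO2 were 0.35, 0.83 and 1.39 in the order IMR32, NGP, SK-N-BE(2)c, and those with ASO10 were 0.44 and 0.43 in the last 2 of these lines. DUSP16, another phosphatase for JNK, was lower with ASO2 in NGP and SK-N-BE(2)c (-1.13 and -1.11, limma adjusted p 0.00686 and 1.32e-10) and higher with ASO1 in IMR32 (0.36). DUSP7, a close homologue of DUSP6, was higher with ASO2 in all 3 lines (0.24, 0.49 and 0.46) and lower with ASO10 in NGP (-0.21). DUSP2, tested in NGP and SK-N-BE(2)c, was higher with ASO2 in NGP (0.58) and with ASO10 in SK-N-BE(2)c (0.79) and lower with ASO10 in NGP (-0.32).

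A list of 20 other transcripts that ERK signalling is known to induce, many of them immediate early genes, had more members higher than lower in all 6 comparisons with NCA. The share higher was 53.3% to 80% and the share lower 0% to 13.3%, above and below those of all genes in each comparison. Of the 18 tested in IMR32, 12 were higher and 0 lower with ASO1, and 13 and 1 with ASO2. In NGP, 14 were higher and 1 lower with ASO2, and 14 and 2 with ASO10. Of 15 tested in SK-N-BE(2)c, 12 were higher and 2 lower with ASO2, and 8 and 2 with ASO10. Medians were 0.34 and 0.52 in IMR32 with ASO1 and ASO2, 0.79 and 1.03 in NGP with ASO2 and ASO10, and 0.73 and 0.32 in SK-N-BE(2)c. FOS, an AP-1 subunit, was higher in 6 of 6 comparisons, for example at 679 ± 24.2 with ASO10, 551 ± 29 with ASO2 and 252 ± 52.4 with NCA in NGP (SD, n = 3). EGR1, JUNB and IER5, which are fast-induced nuclear factors, were also higher in 6 of 6, with log2 fold changes of 0.66 to 1.43, 0.57 to 0.96 and 0.27 to 1.01. ASO2 and ASO10 were also set against each other in each line, and the difference between lines was not tested for the list. In NGP, 5 of 18 were higher with ASO2 and 5 lower (median 0.05), against 30.6% and 28% of all genes. Of 15 tested in SK-N-BE(2)c, 10 were higher with ASO2 and 0 lower (median 0.39), against 34.6% and 30.8%. EGR1, JUNB and IER5 were not called in NGP (-0.18, 0.08 and 0.04, limma adjusted p 0.15, 0.393 and 0.753), and FOS was lower with ASO2 (-0.30, limma adjusted p 0.0205). All 4 were higher with ASO2 than with ASO10 in SK-N-BE(2)c, by 0.48 for EGR1, 0.32 for JUNB, 0.74 for IER5 and 0.84 for FOS (limma adjusted p 0.000268, 0.000439, 2.78e-09 and 0.000273).

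Other feedback genes of receptor kinase and RAS signalling, 12 in the list, were called in both directions. With ASO2, IMR32 had 4 higher and 2 lower of 11 tested, NGP 5 and 4 of 11, and SK-N-BE(2)c 4 and 6 of 10, the last with a median of -0.68. ASO10 had 0 higher and 4 lower in NGP and 1 higher and 5 lower in SK-N-BE(2)c, and ASO1 had 2 higher and 3 lower in IMR32. The share lower was above that of all genes in each comparison (18.2% to 60%). The share higher was below that of all genes with ASO10 (0% in NGP, 10% in SK-N-BE(2)c) and above it with ASO2 (36.4% to 45.5%). With 10 or 11 genes tested, some of these gaps were small. For ASO2 in IMR32, 18.2% were lower against 14.8% of all genes. The NGP share lower was 36.4% with each ASO, against 28.1% for ASO2 and 27.6% for ASO10. SK-N-BE(2)c had 40% higher with ASO2, against 33.6%. RASA1 and RASAL2, GTPase-activating proteins that turn RAS off, were lower in 6 of 6 comparisons. RASA1 changed by -1.14 with ASO2 in SK-N-BE(2)c (181 ± 6.24 against 402 ± 14.4, SD, n = 3, limma adjusted p 4.35e-11), and its other values were -0.26 to -0.60. CBL, a ubiquitin ligase that takes receptors out of service, was higher with ASO2 in all 3 lines (0.29 in IMR32, 0.60 in NGP, 0.65 in SK-N-BE(2)c) and lower with ASO10 (-0.69 in both). RGS2, a regulator of G protein signalling, was higher in IMR32 with both ASOs (0.99 and 0.86) and with ASO2 in NGP and SK-N-BE(2)c (0.54 and 0.19), and lower with ASO10 in SK-N-BE(2)c (-0.63).

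In the core of the cascade, all 23 genes were tested, from adaptors to ERK and the RPS6KA kinases below it. With ASO2, IMR32 had 9 higher and 3 lower, NGP 8 and 7, and SK-N-BE(2)c 11 and 8, and the medians were 0.10, 0.09 and 0.07. ASO10 raised 7 and lowered 7 in NGP and raised 5 and lowered 12 in SK-N-BE(2)c, and ASO1 raised 6 and lowered 4 in IMR32. The shares with ASO2 in NGP, 34.8% and 30.4%, and with ASO10 in that line, 30.4% each way, were near those of all genes. More members than the share of all genes were higher in IMR32 (26.1% with ASO1, 39.1% with ASO2) and in SK-N-BE(2)c with ASO2 (47.8%), and more were lower with ASO10 in SK-N-BE(2)c (52.2%). SOS1, the exchange factor that loads RAS with GTP, was lower with ASO2 in NGP (471 ± 22.1 against 1143 ± 185, SD, n = 3) and in SK-N-BE(2)c (290.3 ± 20.7 against 1022 ± 34.2). The log2 fold changes were -1.27 and -1.81 (limma adjusted p 3.39e-12 and 4e-17), and with ASO10 they were 0.29 and 0.02. SHOC2, a scaffold that helps to activate RAF, was higher in 6 of 6 comparisons, most with ASO2 in NGP (511 ± 24.8 against 174 ± 27.5, log2 fold change 1.56). SHC1, an adaptor to receptors, was higher in both IMR32 comparisons (0.78 and 0.32) and with ASO2 in the other lines (0.55 and 0.49), and lower with ASO10 in NGP (-0.23). RPS6KA1, a kinase that ERK activates, was higher with both ASOs in IMR32 (0.33 and 0.28) and lower with ASO2 in NGP (-0.35) and with both ASOs in SK-N-BE(2)c (-0.83 with ASO2 and -0.43 with ASO10). Its value with ASO10 in NGP, -0.23, did not pass.

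Receptor tyrosine kinases, 22 genes, had more members lower than higher in 5 of the 6 comparisons with NCA. With ASO1 1 was higher and 9 lower of 19 tested in IMR32, and with ASO2 3 and 9. In NGP 5 were higher and 7 lower of 18 with ASO2, and 7 and 6 with ASO10. Of 15 tested in SK-N-BE(2)c, 2 were higher and 8 lower with ASO2, and 3 and 7 with ASO10. The shares in NGP were 27.8% higher and 38.9% lower with ASO2 and 38.9% and 33.3% with ASO10. In IMR32 47.4% were lower with each ASO, and in SK-N-BE(2)c 53.3% and 46.7%. ALK, the receptor known for activating mutations in neuroblastoma, was lower in 6 of 6 comparisons. Its mean in NGP was 815 ± 71.6 with NCA, 449 ± 61.7 with ASO2 and 393 ± 16.0 with ASO10 (SD, n = 3), log2 fold changes of -0.86 and -1.05. EGFR and INSR were lower in 6 of 6 as well, by log2 fold changes of -0.22 to -0.70 and -0.27 to -0.73. DDR2, a collagen receptor, was lower in 4 comparisons and higher in the 2 with ASO10 (0.46 in NGP, 0.21 in SK-N-BE(2)c).

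**Figure D4:**
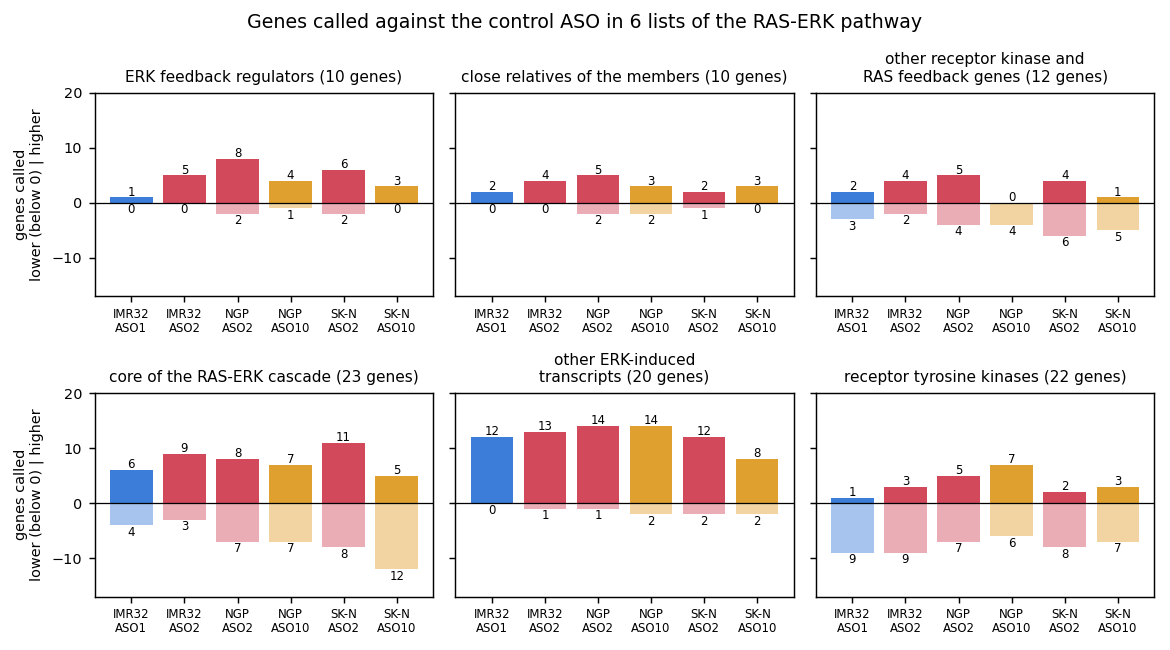
Number of genes called higher (bars above 0) and lower (paler bars below 0) than NCA by limma in 6 lists of the pathway, for each ASO and line (SK-N stands for SK-N-BE(2)c). The ERK-induced list has 8 to 14 genes higher and 0 to 2 lower in every comparison, of 15 or 18 tested. The feedback regulators, 9 or 10 tested, have 5 to 8 higher and 0 to 2 lower with ASO2. With the other ASOs they have 1 to 4 higher and 0 to 1 lower. Of all genes tested, 17.6% to 33.6% were higher and 14.8% to 33.4% lower with ASO2, and 13.6% to 27.8% and 14.4% to 31.1% with the other ASOs.

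The genes closest to 2 members were looked up over the 6 log2 fold changes against NCA, among 11594 genes tested in all lines, as a description only. Nearest to DUSP6 were FAXDC2, TIPARP and METTL16, with root mean square differences of 0.155, 0.16 and 0.173. TIPARP, for example, had 0.30 with ASO1 and 0.62 with ASO2 in IMR32, 0.99 and 0.16 with ASO2 and ASO10 in NGP, and 1.20 and 0.02 in SK-N-BE(2)c. DUSP5 had the greatest mean absolute log2 fold change of the members tested in all lines, 0.718, and its nearest genes were SOX9, PCDH18 and HSPH1, with root mean square differences of 0.222, 0.233 and 0.253. SOX9 had 1.13 and 0.97 with ASO1 and ASO2 in IMR32, 0.88 and -0.41 with ASO2 and ASO10 in NGP, and 1.04 and -0.22 in SK-N-BE(2)c. The 6 fold changes share control libraries within each line.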

How the data were processed

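Per the labels, the authors deposited 1 table of normalized counts per line, a signal that, from the values, is made of read counts divided by a size factor of each library. The submitters' processing notes name FastQC 0.11.8, cutadapt 1.18, STAR 2.6.0, HTSeq 0.6.1 and DESeq2 1.42.0, with hg19 and GRCh37 as builds. The annotation, the use of strand in counting, the kit per library and the time of harvest are not given in the sources used here. Steps between low values gave the size factor of each library, and 100% of values in every library were whole reads within 0.1 read. In IMR32, 174 entries that are no Ensembl gene (0.172% of all values) were left out. Gene IDs matched a symbol for 99.99% of genes in IMR32 and 90.4% in the other tables. No per-sample column was left unused (0).

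Tests were run on log2(value + 1) in R 4.3.3 by limma 3.58.1, with a mean per group, moderated variances with a trend, and Benjamini-Hochberg adjustment over all genes with a mean of at least 10. A gene was called, or said to be higher, lower, raised or lowered, at an adjusted p under 0.05. The fit was run on simulated counts as a check of the code only. Those counts had the same dispersion for every gene and no replicate effect, so they do not test the fit under the spread of these data. IMR32 was fitted alone. NGP and SK-N-BE(2)c were also fitted jointly, because the median ratio of each of their 18 libraries to the geometric mean library was 1.012, so both tables carry 1 scaling. Alternatives were pseudocounts of 0.5 and 5, a minimum mean of 1, the same total per library, edgeR 4.0.16 and DESeq2 1.42.0 on recovered reads, a replicate block and leaving out each library. Replicate numbers were not taken as pairs, because in no pair of groups did all same-numbered libraries deviate together with a correlation over 0.1. Single correlations in IMR32 reached 0.33, so a shared effect of the replicate may remain in its unpaired tests.

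Every member was described in every comparison. From each other list, counts are given, and by name up to 4 genes called in the most of the 6 comparisons with NCA. The 3 genes closest in fold changes are named for DUSP6 and for the member with the greatest mean absolute change. The members, lists and motifs were chosen with earlier results of these data known, so they are no independent support for each other. Intervals cover counting error only where they are counts, since nothing in the sources used here tells of the removal of duplicates. Promoter windows come from RefSeq on GRCh38.p14, another build than that of the counts, and were matched by symbol.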

Additional observations from a re-analysis of the deposited data

Results flagged for a closer look

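Among 30 sets of 4 libraries in IMR32 (10 members in 3 groups), 3 held a library far from the other 3, where chance flags about 1 in 20. DUSP4 with ASO1 was at 337.52 in replicate 4 and at 318 to 320.3 in the others. SPRY4 with ASO1 was at 113.48 in replicate 2 and at 98.6 to 100.4 in the others. ETV5 with ASO2 was at 776.23 in replicate 1 and at 539.5 to 569 in the others.

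In 5 cases the effect of an ASO differed between NGP and SK-N-BE(2)c by a test of the difference in limma. These were 2 of 10 members for ASO2 and 3 of 10 for ASO10, near the 16.7% and 16.9% of all 14537 genes tested. Values are the log2 effect in SK-N-BE(2)c minus that in NGP. DUSP4 differed by 0.2367 for ASO2 and by -0.3296 for ASO10, so that both the decrease with ASO2 and the increase with ASO10 were greater in NGP. SPRY2 differed by 0.3745 for ASO2 and by 0.4483 for ASO10. ETV4 differed by 0.2677 for ASO10. The DUSP4 call for ASO2 was lost with the same total per library (limma adjusted p 0.0566), and the ETV4 call without NGP NCA replicate 1 (limma adjusted p 0.0507).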

How the results depend on the processing

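Over 117 pairs of member and comparison, 22 changed side of the threshold under at least 1 alternative, and no called value changed sign. Changes numbered 0 of 117 with a pseudocount of 0.5 or a minimum mean of 1, 1 with a pseudocount of 5, 3 each with edgeR and DESeq2, 8 with the same total per library and 9 with the replicate block. Of those 9, 1 was SPRED1 between the control cells of NGP and SK-N-BE(2)c, a comparison for which the block is no check. Of 1413 fits without 1 library, 1367 kept the call. The members called with ASO1 in IMR32 numbered 1, but 2 with the same total per library, 4 with the replicate block, and 1 to 2 without 1 library. With ASO2 in IMR32 they numbered 5, but 8 with the replicate block. Over all 17309 genes the block raised the calls as well, from 4850 to 6609 with ASO1 and from 5607 to 7419 with ASO2. With ASO10 in NGP they numbered 5, and 3 to 5 without 1 library, the 5 libraries that gave 3 being ASO2 replicate 2, ASO10 replicates 1 and 3, and NCA replicates 1 and 2. The block stands for shared replicate numbers, which did not meet the rule for pairs given above. Correlations between deviations of same-numbered libraries ran from -0.006 to 0.33 in IMR32 and from -0.06 to 0.12 in the other lines. Whether the IMR32 replicates are pairs was not settled. The same total per library moved the median of all genes by -0.14 with ASO2 against NCA and by -0.11 with ASO2 against ASO10 in SK-N-BE(2)c. It moved the share of calls that are higher from 50.2% to 38.4% and from 52.9% to 42.2% there, from 41.8% to 59.8% for ASO1 against ASO2 in IMR32, and from 52.5% to 32.9% for the ASO2 effect between lines. Causes were not tested. SPRY1 had at most 2 reads per library in SK-N-BE(2)c, too few to test there. The depth of that line, 11497829 to 15060356 recovered reads per library, was like that of NGP, 11591178 to 13795561.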
